A study of Mus musculus with 18 samples.

Results

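Organic ion and ABC transporters were examined in the kidney cortex of 5 mouse strains after challenge with antibody against the glomerular basement membrane (anti-GBM antibody), which induces glomerulonephritis. Members were taken by gene symbol: the Slc22 and Slc47 organic ion transporters, the Slco organic anion transporting polypeptides, and the Abca to Abcg subfamilies of ATP-binding cassette (ABC) transporters. B6 and BALB/c were labelled resistant to the nephritis, and DBA1, 129/svj and NZW sensitive, with 3 mice aged 2 months per strain. All 15 mice had been challenged, and no unchallenged mouse was analysed here, so that a standing difference between strains and a difference in the response to the antibody cannot be told apart. The time after challenge is not given for the arrays in the sources used here, and neither is the sex of the mice. In bulk cortex, fewer cells of a type and less RNA per cell cannot be told apart either.

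The arrays were Illumina bead arrays read in 2 tables, one with B6 and NZW and the other with BALB/c, DBA1 and 129/svj, and strains were compared within a table. Of 46643 probes on the arrays of B6 and NZW, 149 were members, for 84 genes. In the second table, which carries no symbols, 57 of 46147 rows shared a search key with those probes, for 50 genes. Of the 149 probes, 35 paired one to one with a row, 50 had a key shared by several probes, and 64 could be read in B6 and NZW only, among them every Slc47 probe and those of Slc22a5, Slc22a7, Slc22a8 and Slc22a12. The arrays of B6 and NZW had median raw signals of 81.1 to 89.8 and 33.8 to 36.4% of probes detected, and the arrays of the other strains 118.5 to 151.6 and 30.5 to 34.2%. A Xist probe was detected in all mice of B6 and NZW, at 10.08 to 10.13 (normalized log2 signal) in B6 and 9.71 to 10.34 in NZW. A probe of the Y-linked gene Uty had enough signal to be tested in each of the 2 tables. Its signal was low, at 5.56 to 5.95 in B6, 5.69 to 5.97 in NZW and 5.75 to 6.06 in BALB/c. The other Xist and Uty probes were detected in no mouse. Neither were those of the Y-linked genes Eif2s3y and Jarid1d in any strain, or of Ddx3y in B6 and NZW. The sex of the mice was not tested. The androgen-dependent kidney gene Kap passed the test in none of the comparisons. In DBA1, mouse 3 was the least like its strain: its mean correlation with the other mice of its strain was 0.961, against 0.974 for each of those 2 mice. In 129/svj the spread was similar, with 0.9785, 0.9713 and 0.9667 for mice 1, 2 and 3. The main fits keep all mice, and results that rest on DBA1 mouse 3 are given with and without it below.

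The proximal tubule clears drugs, toxins and metabolites from the blood in 2 steps. Organic anion and cation transporters of the Slc22 family take them up across the basolateral membrane, and ABC pumps such as Abcc2, Abcc4, Abcg2 and Abcb1a, together with the proton antiporter Slc47a1, pass them across the brush border into the urine. Other members do not secrete drugs: Slc22a5 recovers carnitine from the filtrate, Slc22a12 reabsorbs urate, Abca1 and Abcg1 export cholesterol, Abcd2 and Abcd3 bring acyl-CoA into peroxisomes, and the Abce and Abcf proteins, which have no membrane-spanning part, act on ribosomes and translation.

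Detection separated the families. A probe was counted as detected in a mouse when its detection P value was 0.05 or less. In B6 and NZW, 61 of the 149 member probes were detected in all 6 mice, 17 in some and 71 in none, and 34 of the 84 genes had no probe detected in any mouse. Of the Slc22 family, 15 of 24 probes, for 11 of 16 genes, were detected in all 6 mice. Among these were both probes of Slc22a6 (OAT1) and the probe of Slc22a8 (OAT3), the uptake carriers for organic anions, and that of the cation carrier Slc22a2. All 8 Abcf probes and 6 of 8 Abcd probes were detected throughout. By contrast, 20 of 28 Slco probes were detected in no mouse, including both probes of Slco1a1 and both of Slco4c1, which are known as kidney carriers. The single probes of Abca1 and Abcb1a were detected in no mouse and that of Abcb1b in 1 of 6. Abcg2, the urate and drug pump of the brush border, was detected in all 6 mice, as were Abcc4 and both probes of Abcc2. In BALB/c, DBA1 and 129/svj, 17 of 57 rows were detected in all 9 mice, 8 in some and 32 in none. A probe below detection gives no order between strains.

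**Figure D1:**
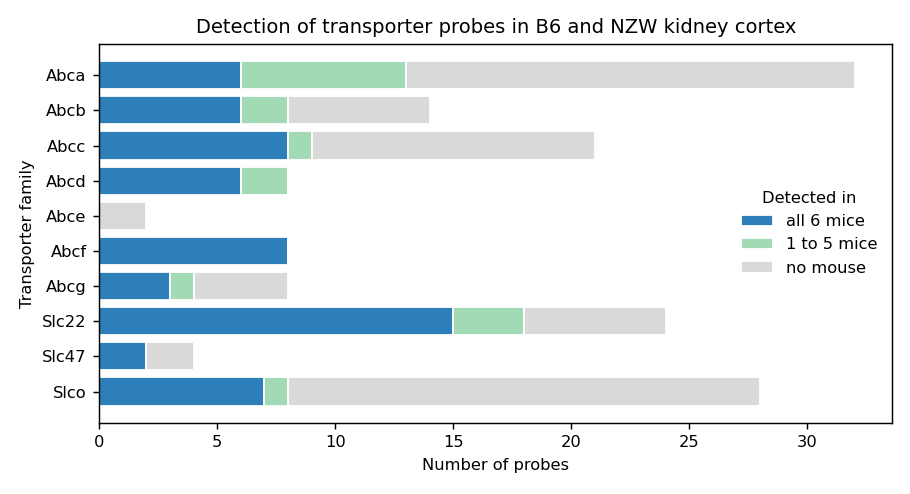
Number of member probes in B6 and NZW (x axis, probes) by family (y axis), coloured by whether a probe was detected in all 6 mice, in 1 to 5 mice or in none. Most Slc22 probes (15 of 24) and all 8 Abcf probes were detected throughout, while 20 of 28 Slco probes were detected in no mouse.

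The first comparison asked how transporters of the resistant B6 strain differed from those of the sensitive NZW strain. Carriers for carnitine, ergothioneine and organic cations were lower in B6 on at least 1 probe each, and 12 of the 16 probes that passed the test were lower there. In all, 65 member probes (43 genes) had enough signal to be tested, and 16 probes (14 genes) passed an adjusted P of 0.05, 4 higher and 12 lower in B6. The share called among all 16766 tested probes was 18.8%, with 9.24% higher and 9.60% lower, against 24.6% of the members tested. The median log2 difference over the tested members was -0.14, beside -0.04 over all tested probes. By family, the calls were 3 lower of 15 tested Slc22 probes, 1 lower of 2 Slc47 probes, 1 higher of 7 Slco probes, 2 higher and 2 lower of 9 Abca probes, 1 lower of 6 Abcb probes, 2 lower of 8 Abcc probes, 1 higher of 6 Abcd probes, 3 lower of 8 Abcf probes and none of 4 Abcg probes.

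Slc22a5 (OCTN2), the carnitine carrier, gave the widest gap on one of its 2 probes. Probe ILMN_2651273 read 6.74, 6.95 and 6.89 (normalized log2 signal) in the B6 mice and 9.70, 9.21 and 9.79 in the NZW mice. No B6 mouse came near an NZW mouse, and the log2 difference was -2.71 (SE 0.16, adjusted P = 7.2e-06), a 6.54-fold lower signal in B6. The other probe, ILMN_1248798, did not show this: it read 8.81, 8.88 and 9.02 in B6 and 8.94, 8.68 and 9.01 in NZW, a difference of 0.03 (SE 0.12, adjusted P = 0.90). Taken mouse by mouse, the gap between the probes differed between the strains by -2.74, with an exact two-sided permutation P of 0.10, the smallest that 3 mice against 3 can give. Probe sequences were not used here, so whether the probes read the same transcript, or whether a strain variant lies under one of them, was not tested.

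Slc22a4 (OCTN1), the ergothioneine carrier, was also lower in B6. Its log2 signals were 6.99, 7.17 and 7.31 in B6 and 8.19, 8.02 and 8.08 in NZW, a difference of -0.94 (SE 0.12, adjusted P = 8.0e-04) without overlap of the strains. In the RefSeq annotation Slc22a4 and Slc22a5 lie on chromosome 11 with Slc22a21 between them, and the probe of Slc22a21 was detected in no mouse. Slc22a2 (OCT2), the main basolateral cation carrier, read 9.73, 9.68 and 9.85 in B6 and 10.46, 10.44 and 10.50 in NZW. Again every B6 mouse lay below every NZW mouse, and the difference was -0.71 (SE 0.10, adjusted P = 0.0015). Slc47a1 (MATE1), which completes cation secretion at the brush border, had 1 of 2 tested probes called, at -0.45 (SE 0.13, adjusted P = 0.049), with 10.08, 10.27 and 10.09 in B6 against 10.69, 10.36 and 10.75 in NZW. Its other tested probe differed by -0.28 (SE 0.11, adjusted P = 0.11).

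The organic anion carriers of the Slc22 family did not pass the test between these strains. The Slc22a6 probes differed by -0.26 (SE 0.11, adjusted P = 0.13) and 0.22 (SE 0.12, adjusted P = 0.24), in opposite directions. The difference was -0.29 (SE 0.13, adjusted P = 0.17) for Slc22a8 and -0.06 (SE 0.18, adjusted P = 0.85) for Slc22a7 (OAT2). Slc22a12 (URAT1), the urate reabsorber, gave 0.18 (SE 0.15) and 0.09 (SE 0.22) on its 2 probes, with adjusted P of 0.45 and 0.83. Among the apical pumps, Abcc2 (MRP2) differed by -0.02 (SE 0.15) and 0.07 (SE 0.11) on its probes, Abcc4 (MRP4) by 0.10 (SE 0.10) and Abcg2 (BCRP) by -0.40 (SE 0.12, adjusted P = 0.056). The Abcg2 signals, 5.49, 5.56 and 5.44 in B6 and 5.83, 6.12 and 5.76 in NZW, did not overlap although the test was missed.

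Higher in B6 were Slco2b1, Abcd3, Abca8a and Abca5. Slco2b1 (OATP2B1), a carrier of steroid sulfates and drugs, read 10.12, 9.91 and 10.09 in B6 and 8.51, 8.97 and 8.64 in NZW, a difference of 1.33 (SE 0.14, adjusted P = 2.7e-04) or 2.52-fold. Every B6 mouse exceeded every NZW mouse for this gene. Abca5, a lysosomal relative of the cholesterol exporters, had 1 probe detected in every B6 mouse and in no NZW mouse. It was the only member probe of either table with such a split between strains. Probe ILMN_2702163 read 6.87, 6.74 and 6.76 in B6, while in NZW its values of 4.88, 4.99 and 4.75 were not above background. The signal was at least 2.76-fold higher in B6. The probe passed the detection filter through B6 alone and so had to differ, and its place among the calls is read as detection only. Of the 15 called probes detected in both strains, 3 were higher and 12 lower in B6. In all, 2.15% of all tested probes were likewise detected in all B6 and no NZW mice. The other 2 Abca5 probes did not show this split: ILMN_2592759 was detected in 1 NZW mouse and no B6 mouse, and ILMN_2627051 in no mouse. Abca8a, a lipid transporter, was 0.59 higher (SE 0.12, adjusted P = 0.011), with 6.91, 6.65 and 6.94 in B6 and 6.19, 6.38 and 6.14 in NZW.

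Abcd3 (PMP70), the peroxisomal transporter for acyl-CoA, was called on 1 of 3 probes. Probe ILMN_2580918 read 9.27, 9.39 and 9.17 in B6 and 8.42, 7.86 and 7.96 in NZW, a difference of 1.20 (SE 0.16, adjusted P = 9.5e-04). The strains did not overlap on this probe, whereas the other 2 probes gave -0.20 (SE 0.15, adjusted P = 0.43) and -0.11 (SE 0.15, adjusted P = 0.67). The mouse-by-mouse gap between the called probe and each of the others differed by 1.39 and 1.31, each with an exact permutation P of 0.10.

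**Figure D2:**
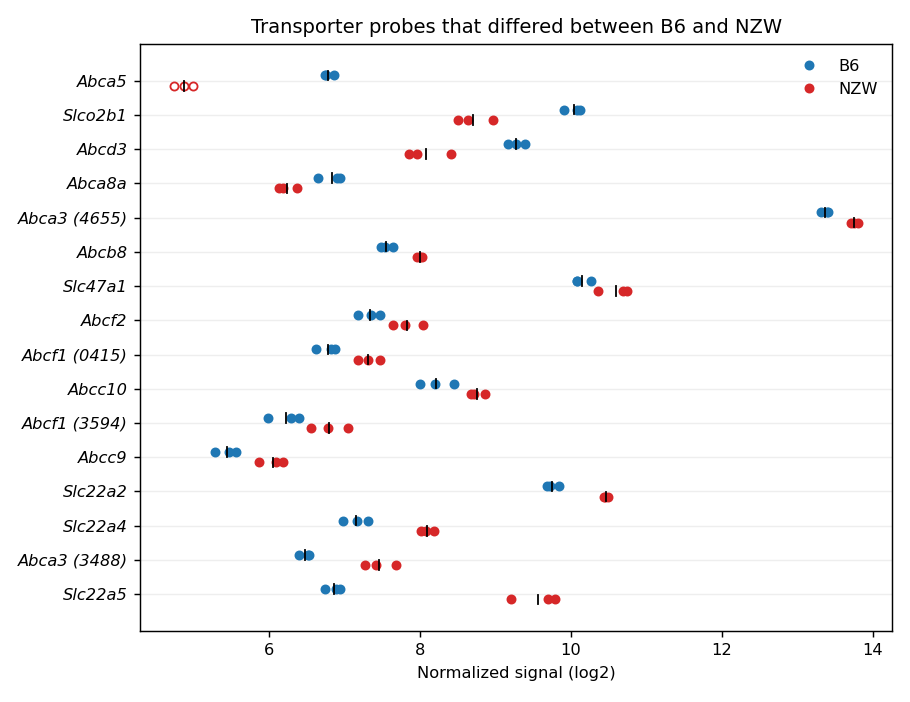
Normalized log2 signal (x axis) of each of the 16 called member probes (y axis, with the last digits of the probe where a gene has more than 1) in the 3 B6 and 3 NZW mice. Filled points are detected, open points not, and black ticks are strain means. Slc22a5 at the foot shows the widest gap in favour of NZW, from 6.86 to 9.57 on average, and Abca5 at the top is open in NZW.

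The rest of the calls were ABC proteins lower in B6. Abca3, the lipid transporter of lamellar bodies, was lower on both of its tested probes, by -0.97 (SE 0.13, adjusted P = 9.9e-04) and -0.39 (SE 0.10, adjusted P = 0.028). These probes lay far apart in level, with means of 6.48 in B6 and 7.46 in NZW on the first and 13.37 and 13.76 on the second. Whether they read the same transcript was not tested. Abcc9, the sulfonylurea receptor of vascular ATP-sensitive potassium channels, differed by -0.61 (SE 0.13, adjusted P = 0.012) on its only tested probe. That probe was dim, at 5.48, 5.29 and 5.56 in B6 and 6.19, 5.87 and 6.09 in NZW, and the other Abcc9 probes were detected in no mouse. Abcc10 differed by -0.54 (SE 0.14, adjusted P = 0.026) on 1 of 2 tested probes. Abcb8, of the inner mitochondrial membrane, differed by -0.45 (SE 0.10, adjusted P = 0.016) on 1 of 2 probes. Of the translation-linked proteins, Abcf1 was lower on 2 of 3 probes, by -0.57 (SE 0.16, adjusted P = 0.038) and -0.54 (SE 0.12, adjusted P = 0.017), and Abcf2 on 1 of 3, by -0.50 (SE 0.14, adjusted P = 0.035). In 8 of the genes with a call more than 1 probe was tested, and Abca3 was the one gene of these called on all of its tested probes. Over the 12 pairs of probes compared in these 8 genes, 7 had an exact permutation P of 0.10, the floor, and the others lay between 0.30 and 0.80. The smallest P adjusted over the 12 pairs was 0.17. The 49 tested member probes without a call differed by -0.65 to 0.38, a range that holds 10 probes with an unadjusted P below 0.05.

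**Figure D3:**
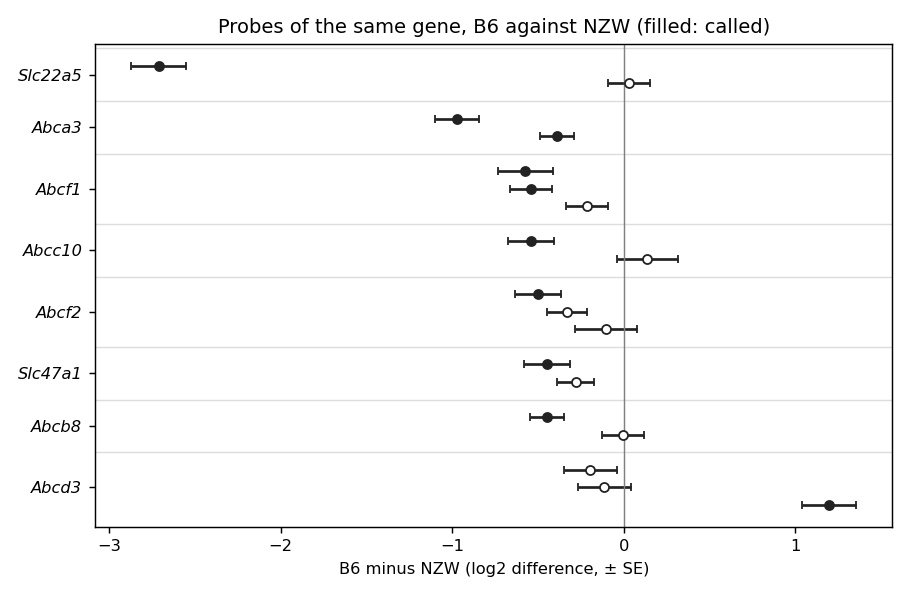
B6 minus NZW log2 difference with its standard error (x axis) for every tested probe of the 8 genes (y axis) that had more than 1 tested probe and at least 1 call. Filled points passed the test. The Slc22a5 probes lie at -2.71 and 0.03 and the Abcd3 probes at 1.20, -0.11 and -0.20, while both Abca3 points are filled and below 0.

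Leaving out single mice separated calls that held in each such fit from calls that were lost in some. Without B6 mouse 1, 2 or 3 the number called was 8, 7 and 9, and without an NZW mouse it was 13 or 14. The calls of Slc22a5, Slc22a4, Slc22a2, Slco2b1, Abcd3 and the Abca3 probe ILMN_1243488 held in each of those 6 fits. Those of Slc47a1, Abcf2, Abcf1 probe ILMN_2693594 and the second Abca3 probe held in 1 of 6. Without any one B6 mouse Abca5 no longer passed the detection filter and was not tested. Scaling each array to its 75th percentile in place of quantile normalization gave 4 higher and 19 lower members, with a median of -0.25 over the members and -0.13 over all tested probes. Over all probes that scaling moved the split from 1549 higher and 1610 lower to 1352 higher and 2269 lower.

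Markers of the proximal tubule, where the Slc22 carriers sit, moved with the lower calls. Of the 14 tested probes of that marker list, 6 were lower in B6 and 0 higher, among them the endocytic receptor Lrp2 (-1.16, SE 0.13, with -0.16, SE 0.12, adjusted P = 0.41 on its other tested probe) and the lactate carrier Slc5a12 (-1.35, SE 0.18), and the list had a median of -0.29. Its summed signal was 16.97 to 17.09 (log2) in B6 and 17.22 to 17.29 in NZW. For the later nephron 2 of 10 probes were higher, both of the distal tubule cotransporter Slc12a3, whose other 2 tested probes gave -0.14 and 0.13 without a call, with a summed signal of 15.61 to 15.69 against 15.12 to 15.48. Of the tubule injury genes Lcn2, Timp1 and Spp1 were higher in B6 and Havcr1 lower, at -2.77 (SE 0.60), and the summed signal of these 4 was 12.93 to 13.93 against 12.62 to 13.01. Macrophage, lymphocyte and neutrophil lists had 0 called of 7, 3 and 4 tested probes in limma. The part of these shifts in the transporter differences was not tested.

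Scaffolds and regulators that act on the transporters were called in both directions. Of the 29 tested probes of a list of such partners, 2 were higher and 6 lower in B6. Pdzk1, the brush border scaffold that holds Slc22a12 and other carriers, was lower on both probes, by -0.64 (SE 0.11, adjusted P = 0.0048) and -0.44 (SE 0.10, adjusted P = 0.014). Ppara, the nuclear receptor of fatty acid oxidation, differed by -1.23 (SE 0.21, adjusted P = 0.0042). Osta, a subunit of the basolateral bile acid exporter, differed by -0.70 (SE 0.17, adjusted P = 0.021), and Nr1h4, the bile acid receptor, by -0.39 (SE 0.11, adjusted P = 0.041). The peptide carrier Slc15a2 was lower on 1 of 2 probes, and the dicarboxylate carrier Slc13a3, which feeds anion exchange at Slc22a6, was higher on 1 of 2, at 0.62 (SE 0.12, adjusted P = 0.0080). Nr1h2 was 0.47 higher (SE 0.12, adjusted P = 0.029). Hnf4a, a main activator of tubule carriers, differed by 0.00 (SE 0.13, adjusted P = 0.98).

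In the second table, 22 member rows (19 genes) were tested, and the calls fell on 3 genes: Slc22a6, Abcc2 and Abcc3. BALB/c against DBA1 gave 0 called members in limma (5.75% of 15818 tested probes were called), with 5 at an unadjusted P below 0.05 and a smallest adjusted P of 0.054. BALB/c against 129/svj gave 2, both lower in BALB/c (4.82% called of all tested, 2.36% lower). DBA1 against 129/svj, both sensitive strains, gave 1 higher and 1 lower (4.48% called of all tested, 2.17% higher and 2.31% lower). The median differences of the members were -0.06, 0.03 and 0.11, beside 0.01, 0.01 and 0.00 over all tested probes. These 3 comparisons share strains, so that their calls are not independent of each other.

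The 2 carriers that differed between BALB/c and 129/svj act at opposite faces of the tubule cell, and their promoters are shown because both genes were higher in the same strain. The windows, written 5′ to 3′, are the 250 bases before the RefSeq start, from the C57BL/6J reference assembly GRCm38.p6, plus strand, and not the sequence of BALB/c or 129/svj. Slc22a6 lies at chr19:8617746-8617995 and Abcc2 at chr19:43782058-43782307. Capitals mark the searched letters: GTTAAT, the core of an HNF1 site, in Slc22a6, and in Abcc2 TGACNNNGC, the core of the antioxidant response element, followed by AGGTCA, one arm of a nuclear receptor site.
Slc22a6: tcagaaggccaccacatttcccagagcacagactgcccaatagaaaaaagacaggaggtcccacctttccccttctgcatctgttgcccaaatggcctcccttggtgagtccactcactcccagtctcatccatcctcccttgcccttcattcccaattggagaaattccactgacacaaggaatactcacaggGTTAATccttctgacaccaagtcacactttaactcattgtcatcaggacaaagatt
Abcc2: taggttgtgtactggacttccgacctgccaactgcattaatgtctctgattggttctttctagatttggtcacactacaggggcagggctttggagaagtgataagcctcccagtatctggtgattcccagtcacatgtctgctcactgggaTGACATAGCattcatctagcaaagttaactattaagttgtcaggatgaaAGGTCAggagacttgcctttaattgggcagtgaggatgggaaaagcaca
GTTAAT began 56 bases before the start of Slc22a6, and in Abcc2 the 2 matches began 98 and 49 bases before the start. Of all 32851 such windows, 6.43% held GTTAAT on either strand, 14.02% AGGTCA and 10.2% TGACNNNGC. Of the 75 windows found for member genes, 4.0%, 13.3% and 10.7% held them. The 2 promoters shared none of the 3 motifs as spelled here, and a match is a description of letters only. Sites of the same factors with other letters were not searched for, so that the lack of a match does not show the lack of a site.

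Slc22a6 read 7.48, 7.94 and 8.20 in BALB/c, 9.46, 9.59 and 8.32 in DBA1, and 9.17, 9.54 and 9.10 in 129/svj. Every BALB/c mouse lay below every mouse of the other strains, with DBA1 mouse 3 the closest. The difference was -1.39 (SE 0.32, adjusted P = 0.037) against 129/svj, a 2.63-fold lower signal in BALB/c, and -1.25 (SE 0.32, adjusted P = 0.054) against DBA1. Without DBA1 mouse 3 the difference from DBA1 was -1.65 (SE 0.22, adjusted P = 0.0030). The difference from 129/svj then stayed at -1.39, with an SE of 0.20 and an adjusted P of 0.0031. The call against 129/svj was lost whenever any one BALB/c or 129/svj mouse was left out, with adjusted P up to 0.14. DBA1 and 129/svj differed by -0.15 (SE 0.32).

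Abcc2, the apical export pump for glutathione and glucuronide conjugates, read 8.70, 8.77 and 8.62 in BALB/c, 8.89, 9.03 and 8.76 in DBA1, and 9.78, 9.55 and 10.13 in 129/svj. The 129/svj mice stood above all others. The difference was -1.13 (SE 0.17, adjusted P = 0.0026) for BALB/c and -0.93 (SE 0.17, adjusted P = 0.0091) for DBA1, and both calls held without any single mouse. BALB/c and DBA1 differed by -0.20 (SE 0.17, adjusted P = 0.61). The rows of Slc22a6 and Abcc2 each have a search key that 2 probes of the first table share, so that which of those probes they repeat is not known. The 2 probes differed in level: in B6 those of Slc22a6 averaged 9.17 and 12.73, and those of Abcc2 9.98 and 5.77. In level both rows were nearer to the probes at 9.17 and 9.98, but the tables were normalized apart and the match was not tested. The Slc22a6 gap may therefore be that of the dimmer probe only. None of those 4 probes passed the test between B6 and NZW.

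Abcc3 (MRP3), the basolateral counterpart of Abcc2, read 9.15, 9.26 and 9.52 in BALB/c, 10.02, 10.07 and 9.53 in DBA1, and 8.97, 8.96 and 8.75 in 129/svj. The strains were ordered DBA1, BALB/c, 129/svj without overlap, although DBA1 mouse 3 and BALB/c mouse 3 were nearly level. DBA1 exceeded 129/svj by 0.98 (SE 0.18, adjusted P = 0.010), a call that was lost without DBA1 mouse 1 (0.91, adjusted P = 0.052) or mouse 2 (0.88, adjusted P = 0.054). BALB/c differed by -0.56 (SE 0.18, adjusted P = 0.11) from DBA1 and by 0.42 (SE 0.18, adjusted P = 0.30) from 129/svj, and without DBA1 mouse 3 the former was -0.73 (SE 0.16, adjusted P = 0.030). With that mouse left out, DBA1 exceeded 129/svj by 1.15 (SE 0.16, adjusted P = 0.0030).

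Among the members that did not pass, several showed a spread within a strain as wide as any gap between strains. Abcd4, a lysosomal transporter for cobalamin, read 7.72, 7.54 and 9.65 in DBA1, and 9.63, 8.94 and 8.26 in BALB/c, against 8.05, 7.90 and 7.46 in 129/svj. DBA1 mouse 3 thus read like the highest BALB/c mouse. Abcg1 read 5.10, 4.96 and 7.43 in DBA1, again with mouse 3 apart, and was detected in 1 mouse of each strain. Slc22a2 was higher in BALB/c than in 129/svj by 0.80 (SE 0.24, adjusted P = 0.12) and than in DBA1 by 0.68 (SE 0.24, adjusted P = 0.16). Its signals were 10.37, 10.46 and 10.52 in BALB/c, 10.01, 10.10 and 9.20 in DBA1, and 9.87, 9.78 and 9.30 in 129/svj, so that the BALB/c mice lay above all others. Without DBA1 mouse 3 the gap to 129/svj kept its size and had an SE of 0.16 and an adjusted P of 0.021. The spread in these fits is pooled over all strains of the table.

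Slc22a4 had differences of -0.17 (SE 0.35) between BALB/c and 129/svj and -0.46 (SE 0.35) between BALB/c and DBA1, with adjusted P of 0.89 and 0.55. Abcc4 read 9.39, 9.54 and 9.41 in BALB/c and 9.86, 9.83 and 9.91 in 129/svj, a difference of -0.42 (SE 0.15, adjusted P = 0.18) without overlap. Its row in DBA1 read 9.99, 9.60 and 9.58. The single rows of Abca1, Abcg2, Slco1a1 and Slco4c1 were detected in no mouse of these strains.

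**Figure D4:**
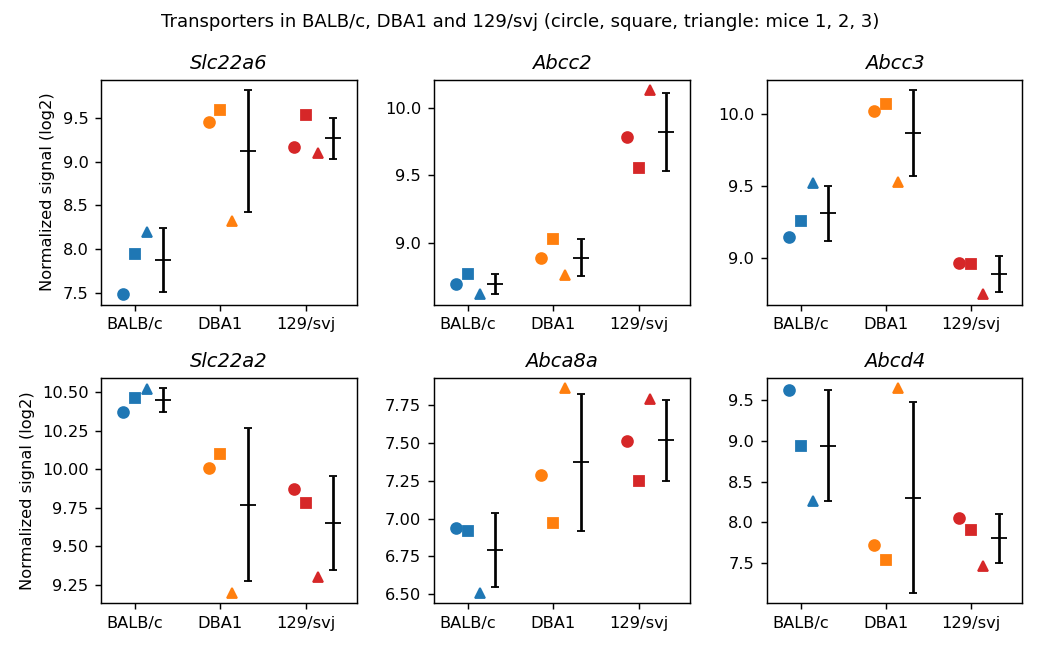
Normalized log2 signal (y axis) of 6 members in BALB/c, DBA1 and 129/svj (x axis). Circle, square and triangle are mice 1, 2 and 3 of a strain, and the bars to the right are mean ± SD. Slc22a6 is lowest in BALB/c and Abcc2 highest in 129/svj, and the DBA1 triangle lies apart from its strain in Slc22a6, Abcc3, Slc22a2 and Abcd4.

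Beside these members, the partner list had 0 called of 13 tested rows for BALB/c against DBA1 in limma, and 1 lower in each comparison with 129/svj. That row was Slc15a2, the high-affinity peptide carrier of the brush border, 12.7-fold lower in BALB/c (log2 difference -3.66, SE 0.18) and 10.3-fold lower in DBA1 (log2 difference -3.36, SE 0.18). The other Slc15a2 row differed by 0.60 (SE 0.39) and 0.64 (SE 0.39), in the opposite direction and without a call. Of the 9 tested proximal tubule rows, 1 was called, the glucose carrier Slc5a2, which was higher than in 129/svj by 1.53 (SE 0.24) in BALB/c and 1.23 (SE 0.24) in DBA1. The summed proximal tubule signal was 16.02 to 16.06 (log2) in BALB/c, 15.90 to 16.12 in DBA1 and 15.73 to 16.05 in 129/svj, with overlap between all 3 strains. In BALB/c against DBA1, 1 of 3 macrophage rows was lower, Cd14 at -2.79 (SE 0.54, adjusted P = 0.014), with summed macrophage signals of 8.30 to 8.98 in BALB/c and 9.75 to 10.73 in DBA1. In the same comparison 1 of 5 later nephron rows was higher, Calb1 at 1.25 (SE 0.31, adjusted P = 0.045), with sums of 14.27 to 14.47 and 14.06 to 14.39. The part of these markers in the transporter differences was not tested.

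Finally, resistant and sensitive strains were compared over the probes matched one to one between the tables, as the mean of BALB/c minus DBA1 and 129/svj and of B6 minus NZW. Of the 35 matched member probes, 12 were tested and 1 was called, against 12.0% of the 6896 tested pairs (6.54% higher). Abcd3 was higher in the resistant strains by 0.58 (SE 0.14, adjusted P = 0.015), on the probe that was called in B6 against NZW, where the other 2 probes of the gene were not. That value came from one side: B6 exceeded NZW by 1.09, whereas BALB/c differed from DBA1 and 129/svj by 0.07.

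Of the organic ion carriers, Slc22a2, Slc22a4 and Slco2a1 had matched probes that could be tested here, and none of these 3 was called in limma. Slc22a4 came closest, at -0.62 (SE 0.20, adjusted P = 0.051), with -0.91 for B6 and -0.33 for BALB/c. Its call between B6 and NZW was lost in this fit (adjusted P = 0.067). In the jointly normalized values it read 6.85, 7.0 and 7.12 in B6 and 7.97, 7.86 and 7.89 in NZW, while the BALB/c mice at 7.59, 7.60 and 7.76 lay inside the range of 7.48 to 8.68 in DBA1 and 7.18 to 8.53 in 129/svj. Without DBA1 mouse 3, 3 members were called: Slc22a4 (-0.71, SE 0.17, adjusted P = 0.010), Abcd4 (0.72, SE 0.18, adjusted P = 0.015) and Abcd3. Without NZW mouse 2 none was called in limma, with an adjusted P of 0.050 for Abcd3.

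The direction of 2 members was opposite in the 2 resistant strains. Slc22a2 was higher in BALB/c than in the mean of its sensitive partners by 0.78 (SE 0.18, adjusted P = 0.010) and lower in B6 than in NZW, by -0.67 (SE 0.21, adjusted P = 0.056) in this fit, and the difference of the 2 sides was 1.45 (SE 0.27, adjusted P = 0.0023). Abca8a went the other way, with -0.68 (SE 0.19, adjusted P = 0.031) for BALB/c and 0.47 (SE 0.22, adjusted P = 0.22) for B6, a difference of -1.16 (SE 0.28, adjusted P = 0.016). For Abcd3 the sides differed by -1.02 (SE 0.29, adjusted P = 0.034). This test of the sides called 3 of the 12 members, 1 higher and 2 lower in BALB/c, and 10.3% of all matched probes, 4.65% and 5.66% in those directions. BALB/c against DBA1 and 129/svj alone called 1 member higher and 1 lower, and 9.64% of all matched probes, 5.10% and 4.54% in those directions.

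**Figure D5:**
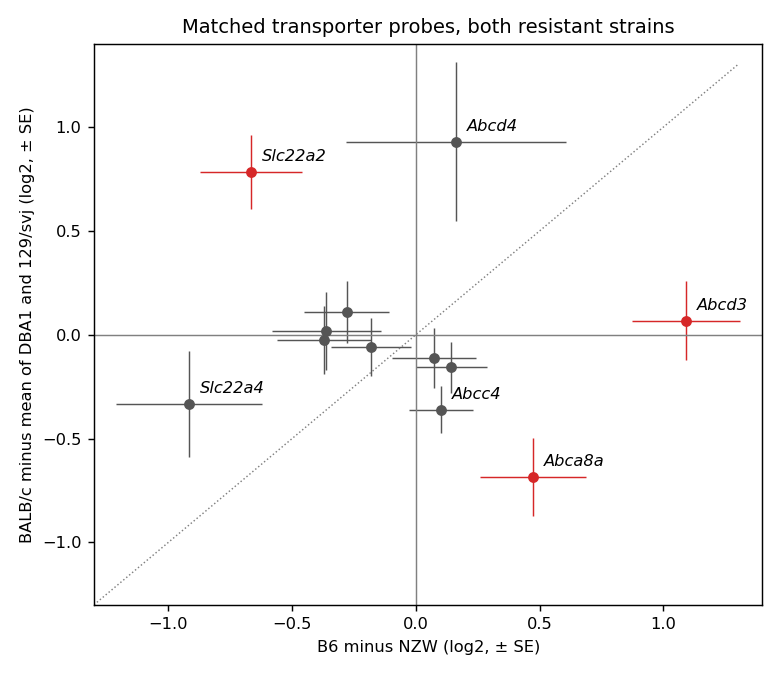
B6 minus NZW (x axis) against BALB/c minus the mean of DBA1 and 129/svj (y axis), log2 difference with standard error, for the 12 matched member probes. Red points are the members whose sides differed in the test. Slc22a2 lies at -0.67 and 0.78, Abca8a at 0.47 and -0.68, and Abcd3 at 1.09 and 0.07, and the dotted line marks equal values.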

How the data were processed

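Kidney cortex RNA from 15 mice (5 strains, 3 mice each) was hybridized to Illumina Mouse WG-6 v1 arrays. The authors deposited 2 tables of BeadStudio average signal intensity that were not normalized, with detection p-values, bead numbers and bead errors per the file headers. In BALB/c, DBA1 and 129/svj, mouse 1 had been hybridized again, and both arrays were averaged. No probe sequence or genome build was used for the probes, and 3 of the 84 member symbols are older than the RefSeq table.

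Per table, limma 3.58.1 (R 4.3.3) was used for background correction (normexp from detection p-values, offset 16), quantile normalization and log2 transformation. Only probes detected (p-value up to 0.05) in 3 or more mice of the table were fitted with 1 coefficient per strain (lmFit, eBayes), with Benjamini-Hochberg adjustment over all tested probes and a threshold of 0.05. A fold below background was taken against the dimmest detected probe of each array. For resistant against sensitive strains, the 19886 probes whose key is unique in both tables were normalized together. P values of the fits measure the spread between mice within strains, 3 mice per strain, pooled over all strains of the fit. A DBA1 mouse therefore also affects the P value of BALB/c against 129/svj. Mice with the same replicate number were not treated as pairs in the main fits: correlations of their deviations were -0.26 to 0.39, with all 3 over 0.1 (0.10 to 0.39) between DBA1 and 129/svj, 1 of 3 between BALB/c and DBA1, and none elsewhere. Scripts in Python 3.11.15 with pandas 2.3.3 read the tables, and the fits were tested on simulated data.

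Members and gene lists were chosen with earlier results of these data known. Named members were, by rule, the called ones (up to 10 in each direction per comparison), those called alike across comparisons or in the joint fit, those detected in all mice of one strain and no mouse of another, and 17 renal transporters whatever their values, not all of which are reported here. Alternatives were another offset (50), 75th percentile scaling, other detection filters, a trended variance, a replicate block, the methods' t-test, other pooling of tables and arrays, and leaving out each mouse. The number of mice limits the precision, and member probes carried 12 to 75 beads.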

Additional observations from a re-analysis of the deposited data

Results flagged for a closer look

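For 3 members, the difference between resistant and sensitive strains was not the same in the 2 tables by a test of the difference itself, over probes matched between the tables. Slc22a2 differed most, with BALB/c minus DBA1 and 129/svj exceeding B6 minus NZW by 1.45 (log2, adjusted P = 0.0023 in limma). For Abca8a the same quantity was -1.16 (adjusted P = 0.016) and for Abcd3 -1.02 (adjusted P = 0.034). The 2 sides also differ in table and in the sensitive strains that they use, which cannot be told apart from the resistant strain.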

How the results depend on the processing

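For the member calls named above, 158 of 181 values under other settings kept direction and call, 23 lost the call and 0 changed sign, and of 144 values with 1 mouse left out the counts were 103, 41 and 0. No label says that replicate numbers pair mice, and only between DBA1 and 129/svj did all correlations of deviations exceed 0.1. The replicate block gave 14 called members for B6 against NZW and changed no other count. Between DBA1 and 129/svj it kept the calls of Abcc2 (adjusted P = 0.028) and Abcc3 (adjusted P = 0.026). For B6 against NZW the count was 16, with 10 by the methods' t-test after Benjamini-Hochberg adjustment (24 unadjusted), 1 of 12 tested with joint normalization of matched probes, and 7 to 14 without single mice. For BALB/c against DBA1 it was 0, with 1 at an offset of 50, 1 under the trended variance, 1 by the unadjusted t-test, 2 under joint normalization and 0 to 2 without single mice. For BALB/c against 129/svj it was 2, with 1 without a filter, 8 and 0 by the t-test unadjusted and adjusted, and 1 to 3 without single mice. For DBA1 against 129/svj it was 2, with 4 and 0 by the t-test, 1 under joint normalization and 1 to 2 without single mice. For resistant against sensitive strains it was 1, with 2 under 75th percentile scaling, no filter, the trended variance, the unadjusted t-test, tables normalized separately or without DBA1, 3 without 129/svj, 0 by the adjusted t-test and 0 to 3 without single mice. The cause of these changes was not tested. Probes below background in both strains, such as 20 of 28 Slco probes in B6 and NZW, give no comparison.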
